A study of Homo sapiens with 12 samples.

Results

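The 10 genes described here code for proteins of the actin contractile apparatus, and most are known targets of serum response factor (SRF). They are TAGLN, MYL9, CNN1, CNN2, TPM1, TPM2, ACTN1, FLNA, VCL and TNNT2, taken by symbol from 60483 gene rows. TNNT2 was selected on its measured level, which had been seen to rise late in these libraries, so its values are a description and carry no test. The other members were named for their function, with results of these libraries known. RNA was sequenced from MCF10A cells, a non-transformed human mammary epithelial line, transduced with a tet-inducible TAZ-4SA. TAZ is a transcriptional coactivator restrained by the Hippo pathway, and TAZ-4SA is a constitutively active form of it. Doxycycline (Dox) at 0.05 µg/mL switches the transgene on. Cells in all 4 groups carried it, and 3 libraries each came from cells without Dox (No Dox) and from cells after 24, 48 and 72 h in Dox. MCF10A cells given Dox without the transgene were not analysed here, nor were untreated cells at the later times, so TAZ-4SA, Dox itself and time in culture cannot be told apart. Nothing in the labels states that replicates came from separate cultures. If they did not, the p-values reflect only spread among these libraries, which may be technical.

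SRF binds DNA at a 10-base sequence called the CArG box. Its cofactors MRTFA and MRTFB bind actin monomers and move to the nucleus when monomers are used up by filament assembly, which ties the transcription of cytoskeletal genes to the state of actin. A second set of cofactors, the ternary complex factors such as ELK1, links SRF to ERK signaling and to immediate early genes such as FOS and EGR1. In smooth muscle and myofibroblasts the MRTF branch drives contractile genes, and the same genes are used by epithelial cells for stress fibers and adhesion.

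Libraries summed to between 15382564 and 26570132 expected counts, with 17873 to 19432 genes detected by 1 count or more. Levels of a gene across libraries are given as CPM, that is counts brought to a shared library size by scaling. Levels of different genes are compared as TPM, which takes account of transcript length. WWTR1, which encodes TAZ, was at 887 ± 68.1, 844 ± 73.6 and 994 ± 59.3 CPM at 24, 48 and 72 h, against 71.7 ± 2.88 CPM without Dox (SD, n = 3 each). In TPM the difference was larger, at 1002 ± 145, 994 ± 152 and 1126 ± 127, against 26.6 ± 2.88 without Dox. The effective length RSEM used for WWTR1 was 1091 ± 51.1, 1067 ± 42.2 and 1111 ± 11.5 nt, against 3229 ± 253 nt without Dox. A shorter length gives a higher TPM for the same counts. Reads of the transgene and of the endogenous gene are not told apart in these gene levels. Summed TPM of 10 breast epithelial markers was 4852 to 5149.7 without Dox, 3272 to 3504 at 24 h, 4764 to 4888 at 48 h and 5462 to 5901 at 72 h, with KRT19 at 0 counts without Dox. Keratins in this sum moved both ways. KRT5 and KRT17 were at 964 ± 43.2 and 607 ± 27.8 TPM at 72 h, against 2009 ± 70.8 and 2269.6 ± 78.5 without Dox. KRT8 and KRT18 were at 1898 ± 45.8 and 1914 ± 114 TPM at 72 h, against 196 ± 4.47 and 348 ± 12.4. Of 8 smooth muscle markers, MYOCD and CASQ2 had 0 counts in every library, and the summed TPM was 14.4 to 17.5, 7.77 to 11.8, 6.88 to 8.37 and 11.9 to 13.4 in the same order. Of 10 heart muscle markers, MYH7 and MYBPC3 were at 0 everywhere and no library summed to more than 2.2 TPM. Of 9 fibroblast markers, COL1A2, COL3A1, PDGFRA and THY1 were at 0 everywhere, and the sum was 38.2 to 39.2 without Dox, 17.9 to 28.1 at 24 h, 13.7 to 16.9 at 48 h and 15.2 to 17.8 at 72 h. Within it DCN was at 0.167 ± 0.289 TPM at 72 h, against 32.3 ± 0.389 TPM without Dox, and FAP at 15 ± 1.14 TPM, against 3.21 ± 0.41 TPM. The highest sum at 24 h was that of replicate 3, where DCN was at 12.2 TPM. DCN had 14, 26 and 23 counts in the 24 h libraries, or 0.655, 1.27 and 1.39 CPM. Its effective length was 138.55 nt in replicate 3, against 1859 and 1868 nt in replicates 1 and 2. The 12.2 TPM thus comes from a short length on 23 counts.

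Promoter sequence is shown for the 4 members with a CArG box, or a box with 1 base changed, in the bases before a start site. RefSeq windows (GRCh38.p14) matched 8 of the 10 members with 12 windows, and TAGLN and MYL9 were not among them. Each window holds the 250 bases before a start site and was searched on both strands for the CArG box, for GGAATG, the core bound by the TEAD partners of TAZ, and for TGANTCA, the AP-1 site. CNN2 and FLNA have 1 window, TNNT2 has 1, and the ACTN1 window is 1 of 4 start sites. They lie at chr19:1026358-1026607 (plus strand, CNN2), chrX:154374635-154374884 (minus strand, FLNA), chr14:68977567-68977816 (minus strand, ACTN1) and chr1:201377681-201377930 (minus strand, TNNT2). All are printed 5′ to 3′ on the strand of the gene. Capitals mark CArG boxes, CArG boxes with 1 base changed and GGAATG or its reverse complement CATTCC.
CNN2: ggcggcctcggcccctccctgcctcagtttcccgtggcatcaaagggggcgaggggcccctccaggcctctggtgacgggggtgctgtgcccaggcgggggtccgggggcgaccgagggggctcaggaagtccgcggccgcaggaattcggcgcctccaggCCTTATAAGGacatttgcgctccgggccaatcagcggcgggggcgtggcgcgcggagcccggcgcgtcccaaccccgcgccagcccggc
FLNA: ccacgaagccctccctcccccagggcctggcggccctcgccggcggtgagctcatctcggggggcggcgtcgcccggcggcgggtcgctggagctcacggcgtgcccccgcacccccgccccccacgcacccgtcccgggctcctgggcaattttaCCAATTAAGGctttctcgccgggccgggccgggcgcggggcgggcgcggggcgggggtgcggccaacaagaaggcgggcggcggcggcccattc
ACTN1: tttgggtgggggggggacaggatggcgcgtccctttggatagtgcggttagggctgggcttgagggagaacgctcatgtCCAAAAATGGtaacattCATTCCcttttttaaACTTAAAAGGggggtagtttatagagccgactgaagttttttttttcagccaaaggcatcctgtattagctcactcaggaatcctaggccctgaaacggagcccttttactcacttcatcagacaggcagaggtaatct
TNNT2: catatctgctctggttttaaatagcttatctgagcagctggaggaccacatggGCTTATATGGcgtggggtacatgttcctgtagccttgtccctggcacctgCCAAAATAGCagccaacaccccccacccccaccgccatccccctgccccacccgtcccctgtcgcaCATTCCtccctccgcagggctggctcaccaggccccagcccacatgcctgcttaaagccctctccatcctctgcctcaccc

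An unaltered CArG box lay in a window of 3 of the 8 matched members. In CNN2 it is CCTTATAAGG at -89 to -80 from the start site, in FLNA it is CCAATTAAGG at -94 to -85, and in ACTN1 it is CCAAAAATGG at -171 to -162. Over all 35116 windows of this length, 1.16% hold a CArG box. The TNNT2 window holds none. It holds 2 variants with 1 base changed, GCTTATATGG at -197 to -188 and CCAAAATAGC at -147 to -138, and 16.8% of all windows hold a box with at most 1 change, a class that includes the unaltered box. GGAATG was met in 3 members, as CATTCC in TNNT2 at -81 to -76 and in ACTN1 at -154 to -149, and as GGAATG in VCL at -171 to -166, beside 11.9% of all windows. TGANTCA was met in 0 members and in 6.57% of windows. The CNN1, TPM1 and TPM2 windows held none of these letters. A match is a description of the sequence, and a window without one says only that these letters are not in it. Members are counted once here though ACTN1 had 4 windows and TPM2 had 2, while the shares are of windows, so the 2 are not like for like.

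Of the 9 members other than TNNT2, 8 passed the filter on low counts, and Dox was followed by a higher level of most of them. Calls needed an adjusted p under 0.05 together with a log2 fold change of 1 or more in size (edgeR quasi-likelihood test, Benjamini-Hochberg adjustment over 14822 genes). At 24 h 5 of 8 were called higher (TAGLN, MYL9, TPM1, ACTN1 and FLNA), beside 12% of all genes tested. At 48 h and at 72 h 4 of 8 were called higher, all but FLNA of that group, beside 10.6% and 10.2%. None was called lower at any time, beside 17.7%, 14.4% and 12.3% of all genes. By adjusted p alone 7, 7 and 8 of 8 were higher at 24, 48 and 72 h, beside 37.1%, 36.0% and 34.3% of all genes, and 0 were lower, beside 38.1%, 35.8% and 34.8%. The libraries of the Dox group lay above all No Dox libraries for 7, 7 and 8 of the 8 (all but VCL at 24 h and 48 h), beside 38.0%, 37.4% and 36.1% of all genes. The members' median log2 fold change was 1.36, 1.23 and 1.1, and that of all genes tested was -0.03, -0.01 and -0.02. These 3 comparisons share the No Dox libraries, and the members were picked with results of these data known, so the counts describe the set. In bulk RNA a change in the share of cells that express a gene and a change in RNA per cell cannot be told apart.

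**Figure D1:**
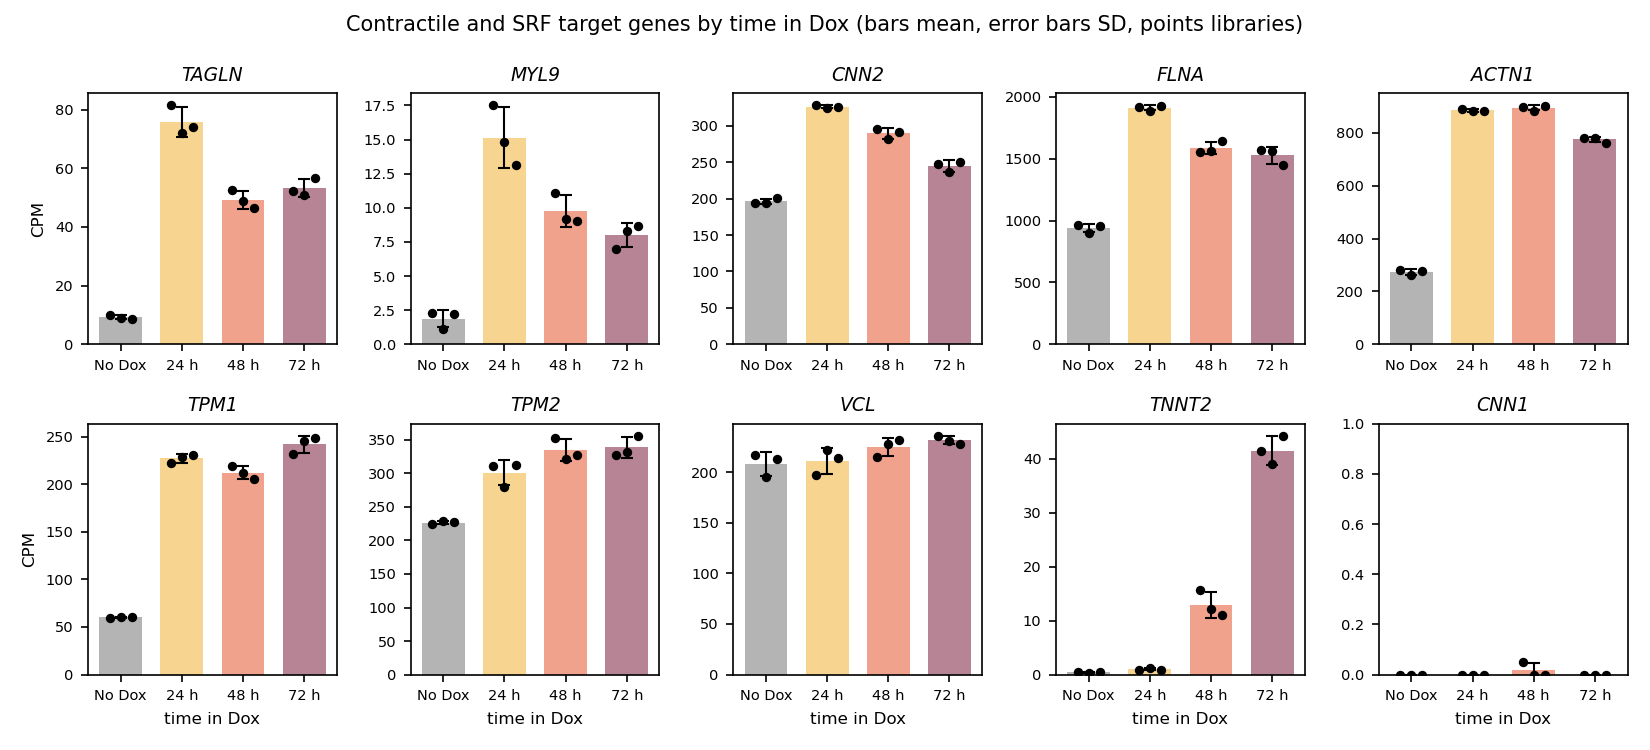
CPM of the members by time in Dox, with bars for the mean, error bars for the SD and a point for each of 3 libraries per group, on axes that start at 0. TAGLN, MYL9, CNN2 and FLNA were highest at 24 h, TPM1 and ACTN1 stayed high through 72 h, VCL was near its No Dox level, and TNNT2 was at 12.9 CPM at 48 h and 41.6 CPM at 72 h.

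TNNT2 (ENSG00000118194, chromosome 1, 201359008 to 201377764, minus strand, GRCh38) encodes cardiac troponin T, which anchors the troponin complex to tropomyosin on thin filaments of heart muscle. Its level was 0.415, 0.379 and 0.493 CPM in the No Dox libraries, 0.842, 1.18 and 0.847 CPM at 24 h, 15.6, 12.1 and 11 CPM at 48 h and 41.4, 39 and 44.3 CPM at 72 h. Each group lay above the one before it without overlap, and the largest step in CPM fell between 48 h and 72 h. The counts behind these values were 9, 6 and 10 without Dox and 18, 24 and 14 at 24 h, so the early levels rest on few reads. At 48 h there were 315, 279 and 170 counts, and at 72 h 847, 623 and 1162. Against No Dox, the fitted log2 fold change was 1.14 (24 h), 4.89 (48 h) and 6.57 (72 h), and the last is a 95.0-fold difference. Alternatives gave 0.75 to 1.6 at 24 h, 3.72 to 5.24 at 48 h and 5.32 to 6.86 at 72 h, the lowest on log2(TPM + 1) and the highest with effective lengths. Between successive times it was 3.75 for 48 h against 24 h and 1.68 for 72 h against 48 h. TNNT2 was selected for this pattern, so no test is given.

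The other troponin genes were looked at after their values were seen, as partners of TNNT2 in the muscle complex. TNNT1, the slow skeletal troponin T, was at 17.9 ± 0.951 CPM without Dox, 8.74 ± 0.415 at 24 h, 8.23 ± 1.31 at 48 h and 9.06 ± 0.845 at 72 h. TNNT2 made up 1.34 ± 0.577% of the summed troponin T TPM without Dox, 7.56 ± 1.58% at 24 h, 51.3 ± 3.67% at 48 h and 74.5 ± 1.12% at 72 h. TNNT1 was lower at each Dox time, which raises the share of TNNT2 in the sum, and TNNT3 had 0 counts in every library. TNNC1, the cardiac and slow skeletal calcium-binding subunit, had 1, 3, 22 and 34 counts over the 3 libraries of each group in time order. TNNI3, the cardiac inhibitory subunit, had 1 count in each group, and TNNI2, the fast skeletal one, was at 91 ± 4.99, 20 ± 2.28, 17.7 ± 0.197 and 20.2 ± 0.829 CPM in time order from No Dox. At 72 h, where TNNT2 was highest, TNNC1 and TNNI3 thus stood at 34 and 1 counts over 3 libraries.

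Across the 12 libraries, the 3 genes most like TNNT2 by Pearson correlation of log2 CPM, among 11318 genes compared, were ADAMTSL4 (r = 0.992), MORN4 (r = 0.991) and PPM1K (r = 0.991). These values describe 4 groups of 3 libraries, with TNNT2 chosen for its pattern, and carry no p. ADAMTSL4, an extracellular matrix protein bound to fibrillin microfibrils, averaged 14.6 CPM without Dox, 26 at 24 h, 91.8 at 48 h and 202 at 72 h. MORN4 averaged 4.82, 5.68, 11.4 and 13.9 CPM in the same order, and PPM1K, a mitochondrial phosphatase of branched-chain amino acid breakdown, averaged 18, 22.3, 35 and 44.3 CPM.

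TAGLN (ENSG00000149591, chromosome 11, 117199370 to 117207464, plus strand) encodes transgelin, an actin-bundling protein of smooth muscle. It was at 9.95, 9.03 and 8.52 CPM without Dox, 81.4, 71.9 and 73.9 CPM at 24 h, 52.6, 48.7 and 46.5 CPM at 48 h and 52.1, 50.8 and 56.7 CPM at 72 h. Every Dox library lay above every No Dox library, and the 24 h libraries lay above all later ones. Against No Dox the log2 fold change was 3.04 at 24 h (SE 0.08, edgeR adjusted p = 3.12e-18), 2.42 at 48 h (SE 0.08, adjusted p = 2.59e-16) and 2.54 at 72 h (SE 0.08, adjusted p = 1.13e-16). Its level at 72 h was below that at 24 h by adjusted p (log2 fold change -0.51, SE 0.07, adjusted p = 1.5e-06).

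MYL9 (ENSG00000101335, chromosome 20, 36541497 to 36551447, plus strand) encodes a regulatory light chain of smooth muscle and non-muscle myosin II. It was a low gene, at 2.3, 1.14 and 2.22 CPM without Dox, 17.5, 14.8 and 13.1 CPM at 24 h, 11.1, 9.18 and 9.01 CPM at 48 h and 6.99, 8.33 and 8.66 CPM at 72 h. Every library from Dox-treated cells lay above every library without Dox. It changed by 2.97 on the log2 scale at 24 h (SE 0.18, edgeR adjusted p = 3.04e-12), 2.33 at 48 h (SE 0.19, adjusted p = 4.32e-10) and 2.04 at 72 h (SE 0.19, adjusted p = 5.64e-09). Like TAGLN it was highest at 24 h, and it was lower at 72 h than at 24 h by adjusted p (log2 fold change -0.92, SE 0.14, adjusted p = 1.21e-05).

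TPM1 (ENSG00000140416, chromosome 15, 63042620 to 63071915, plus strand) encodes tropomyosin 1, which lies along actin filaments and controls access of myosin. It was at 59.3, 60.8 and 60.2 CPM without Dox, 222, 229 and 230.3 CPM at 24 h, 219, 212 and 205 CPM at 48 h and 232, 245 and 249 CPM at 72 h. The 3 Dox groups stood well clear of No Dox, and the log2 fold change was 1.92, 1.82 and 2.01 in time order (SE 0.05 each, edgeR adjusted p = 1.46e-18, 4.04e-18 and 8.24e-19). TPM1 did not pass the test between 72 h and 24 h (log2 fold change 0.09, adjusted p = 0.0796).

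ACTN1 (ENSG00000072110, chromosome 14, 68874128 to 68979440, minus strand) encodes a non-muscle alpha-actinin that cross-links actin at stress fibers and adhesions. It was at 283, 261 and 277 CPM without Dox, 891, 882 and 884 CPM at 24 h, 897, 885 and 903 CPM at 48 h and 781, 782 and 763 CPM at 72 h. The log2 fold change was 1.69, 1.71 and 1.5 (SE 0.04 each, edgeR adjusted p = 1.17e-18, 1.2e-18 and 1.05e-17). The 72 h level was lower than that at 24 h (log2 fold change -0.19, adjusted p = 0.000473), a small step beside its distance from No Dox.

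FLNA (ENSG00000196924, chromosome X, 154348524 to 154374634, minus strand) encodes filamin A, a large actin cross-linker that also binds integrins. It was at 961, 903 and 957 CPM without Dox, 1919, 1889 and 1926 CPM at 24 h, 1558, 1565 and 1644 CPM at 48 h and 1569.9, 1561 and 1451 CPM at 72 h. Its log2 fold change was 1.02 at 24 h (SE 0.04, edgeR adjusted p = 1.09e-14), just past the fold threshold, and 0.76 and 0.70 at 48 h and 72 h (adjusted p = 2.08e-12 and 8.95e-12), under it. The 24 h call was lost with upper-quartile scaling (log2 fold change 0.97) and in a test of the threshold itself (glmTreat, adjusted p = 0.453).

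CNN2 (ENSG00000064666, chromosome 19, 1026586 to 1039068, plus strand), a calponin of non-muscle cells that binds actin, was at 194, 194 and 200.4 CPM without Dox, 328, 324 and 326 CPM at 24 h, 296, 282 and 291 CPM at 48 h and 247, 236 and 251 CPM at 72 h. No groups overlapped, and the level fell stepwise after 24 h. The log2 fold change was 0.73, 0.56 and 0.32, under the fold threshold at each time (edgeR adjusted p = 2.25e-12, 2.13e-10 and 1.46e-06). TPM2 (ENSG00000198467, chromosome 9, 35681992 to 35690056, minus strand), tropomyosin 2, ran the other way in time. Its libraries held 224, 229 and 227 CPM without Dox, 311, 280 and 312 CPM at 24 h, 353, 322 and 328 CPM at 48 h and 328, 332 and 356 CPM at 72 h. Its log2 fold change was 0.41, 0.56 and 0.58, also under the threshold (adjusted p = 4.77e-07, 4.75e-09 and 3.1e-09).

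VCL (ENSG00000035403, chromosome 10, 73995193 to 74121363, plus strand) encodes vinculin, which links talin and actin at focal adhesions. It was at 217, 195 and 213 CPM without Dox, 197, 222 and 214 CPM at 24 h, 215, 228 and 232 CPM at 48 h and 236, 231 and 228 CPM at 72 h. The groups overlapped at 24 h and 48 h, where the log2 fold change was 0.02 and 0.11 (SE 0.05, edgeR adjusted p = 0.78 and 0.0745). At 72 h the change was 0.15 (adjusted p = 0.0156), without overlap and far under the fold threshold. CNN1 (ENSG00000130176, chromosome 19, 11538767 to 11550323, plus strand), the calponin of smooth muscle, had 1 count in all 12 libraries, in 48 h replicate 1, and was not tested. A group's limit of 3 counts stood at 0.0519 CPM for No Dox and 0.0479 to 0.0515 CPM for the Dox times, and a level below it was not detectable at this depth.

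**Figure D2:**
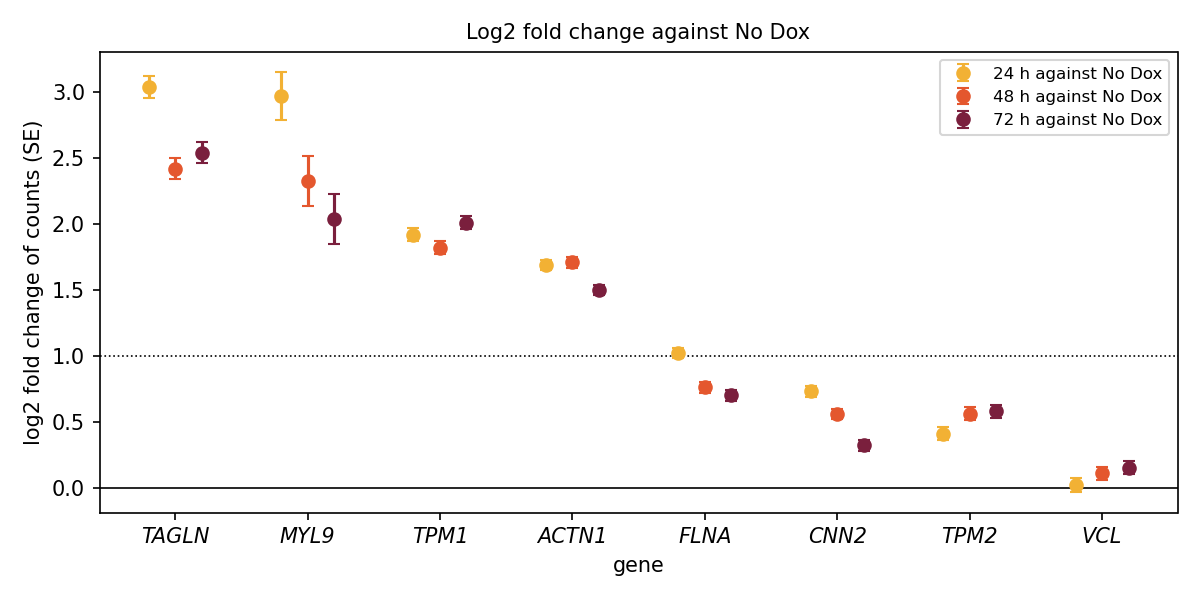
Log2 fold change against No Dox of the 8 tested members other than TNNT2 at 24, 48 and 72 h (points) with SE (bars). The SE was back-calculated from the F statistic of the test, and the dotted line is the fold threshold of 1. TAGLN and MYL9 were near 3 at 24 h and lower later, TPM1 and ACTN1 lay between 1.5 and 2.01 at all times, and VCL stayed at or under 0.15.

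Within the Dox series, 0 of the 8 members tested were called between times by edgeR, beside 3.08% higher and 1.44% lower of all genes at 48 h against 24 h, 2.30% and 0.938% at 72 h against 48 h, and 8.28% and 3.99% at 72 h against 24 h. By adjusted p alone, 1 of 8 was higher and 4 were lower at 48 h against 24 h, beside 18.3% of all genes in each direction. At 72 h against 48 h 1 was higher and 2 were lower, beside 18.6% and 20.1%. At 72 h against 24 h 2 (TPM2 and VCL) were higher and 5 (TAGLN, MYL9, CNN2, ACTN1 and FLNA) were lower, beside 30.5% and 30.2%. The highest means of TAGLN, MYL9, CNN2 and FLNA were at 24 h.

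In TPM, the members at 72 h ranked TPM2 (452 ± 12.1), FLNA (411 ± 40.4), ACTN1 (289.5 ± 19), TPM1 (246 ± 13.8), CNN2 (173 ± 6.02), TAGLN (83.4 ± 2.1), TNNT2 (58.1 ± 5.61), VCL (50.8 ± 4.1) and MYL9 (6.82 ± 1.01). TPM2 and FLNA overlapped there, as did TNNT2 and VCL, at 53.2 to 64.2 and 46.1 to 53.4 TPM. Without Dox the order was TPM2 (258 ± 5.17), FLNA (254 ± 17.3), CNN2 (133 ± 3.87), ACTN1 (97.5 ± 2.26), TPM1 (58.8 ± 1.14), VCL (42.7 ± 2.88), TAGLN (12.6 ± 1.12), MYL9 (1.23 ± 0.495) and TNNT2 (0.477 ± 0.178), and again TPM2 and FLNA did not differ beyond their spread. TNNT2 thus stood beside VCL at 72 h, against last place among the 9 detected members without Dox, while CNN1 was at 0 in both groups.

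The paralogs of several members, chosen after their values were seen, show how far each family was made up of the member. TAGLN held 13.1 ± 0.569% of transgelin TPM at 72 h, against 2.02 ± 0.229% without Dox, the rest being TAGLN2, a widely expressed transgelin. CNN2 held 68.8 ± 1.21% of calponin TPM at 72 h, against 86.1 ± 0.205% without Dox, the rest being CNN3, an acidic calponin of non-muscle cells. Among tropomyosins TPM1 held 15.8 ± 0.403% at 72 h, against 8.03 ± 0.245%, and TPM2 29.1 ± 1.24%, against 35.2 ± 0.347% without Dox. The summed tropomyosin level was 1557 ± 91.7 TPM at 72 h, against 732 ± 8.98 TPM. ACTN1 held 54.4 ± 1.26% of alpha-actinin TPM at 72 h, against 41.6 ± 0.398%, with ACTN4 as the rest. MYL9 was a small part of the regulatory light chains, at 0.947 ± 0.15% at 24 h, against 0.149 ± 0.0582%, the rest being MYL12A and MYL12B.

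**Figure D3:**
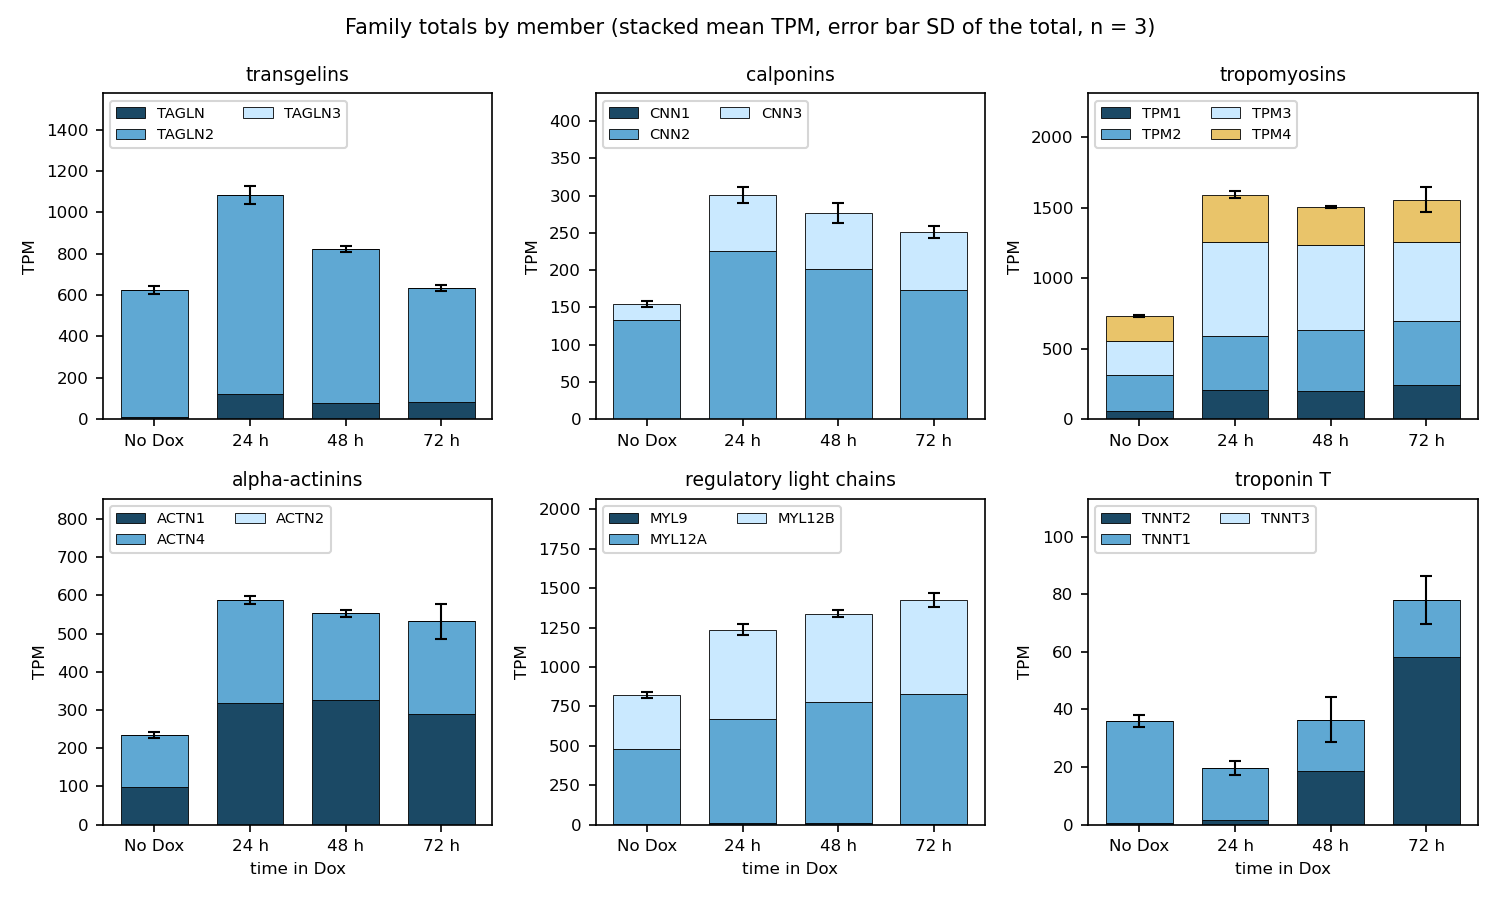
Mean TPM of members and their paralogs, stacked by family, in No Dox, 24, 48 and 72 h libraries (n = 3 each). MYL9 was at most 0.947% of the regulatory light chain stack on average, and TNNT2 made up 74.5% of the troponin T stack at 72 h, against 1.34% without Dox.

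SRF itself was at 53.7 ± 3.23 CPM without Dox, 73.7 ± 4.7 at 24 h, 69.8 ± 2.75 at 48 h and 43.2 ± 2.04 at 72 h. Relative to No Dox, SRF changed on the log2 scale by 0.45 at 24 h (edgeR adjusted p = 1.52e-06), 0.37 at 48 h (adjusted p = 2.16e-05) and -0.32 at 72 h (adjusted p = 0.00021), so the sign turned with time, all under the fold threshold. MRTFA was at 44.3 ± 2.23, 58.3 ± 3.29, 63.6 ± 2.51 and 53.2 ± 3.29 CPM in time order from No Dox, with log2 fold changes of 0.39, 0.52 and 0.26. These too were under the fold threshold (edgeR adjusted p = 1.24e-05, 2.96e-07 and 0.00116). MRTFB was at 66.3 ± 3.22, 40.1 ± 5.87, 41.2 ± 2.96 and 44.4 ± 2.85 CPM, with log2 fold changes of -0.73, -0.69 and -0.58. All were under the threshold (edgeR adjusted p = 1.05e-07, 2.64e-07 and 2.65e-06). With DESeq2 and effective lengths, MRTFB was called lower at 24 h (log2 fold change -1.0, DESeq2 adjusted p = 2.66e-12). MYOCD, the cofactor of smooth and heart muscle, had 0 counts in all libraries.

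Of 27 other contractile and actin cross-linking genes, 19 were tested, and 7, 4 and 5 were called higher and 1, 2 and 1 lower at 24, 48 and 72 h (median 0.82, 0.62 and 0.57, and -0.03, -0.01 and -0.02 over all genes). Of all genes tested, 12%, 10.6% and 10.2% were called higher and 17.7%, 14.4% and 12.3% lower at these times. ACTB, cytoplasmic beta-actin, rose to 7542 ± 245 CPM at 72 h, against 1806 ± 91.9 without Dox (log2 fold change 2.06). CNN3 rose to 116 ± 2.71 CPM, against 32.9 ± 2.71 (1.81), and SMTN, smoothelin, to 95.8 ± 4.4 CPM, against 36.5 ± 2.53 (1.39). TNS1, an actin-binding protein of adhesions, fell to 6.81 ± 0.715 CPM at 72 h, against 15.4 ± 1.13 without Dox (-1.18). ACTA2, smooth muscle alpha-actin and a well-known SRF target in myofibroblasts, is named after its values were seen. It was at 16.3 ± 1.77 CPM without Dox, 8.63 ± 0.423 at 24 h, 6.86 ± 0.945 at 48 h and 11.7 ± 0.851 at 72 h, called lower at 48 h (log2 fold change -1.24).

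All 18 focal adhesion and LIM-domain genes listed were tested (median 0.32, 0.29 and 0.17 at 24, 48 and 72 h). At these times 3, 4 and 4 were called higher, beside 12%, 10.6% and 10.2% of all genes. The share called higher at 24 h is thus near that of all genes. At each time 0 were called lower, beside 17.7%, 14.4% and 12.3%. By adjusted p alone 11, 12 and 10 were higher, beside 37.1%, 36.0% and 34.3% of all genes. On the same measure 4, 4 and 3 were lower, beside 38.1%, 35.8% and 34.8%. CSRP2, a LIM protein of smooth muscle, rose to 22.2 ± 2.79 CPM at 72 h, against 3.72 ± 0.534 without Dox (log2 fold change 2.57). LIMA1, which stabilizes actin filaments, rose to 402 ± 4.7 CPM, against 74.1 ± 3.47 (2.44). PARVA, which binds integrin-linked kinase, rose to 117 ± 2.49 CPM, against 51 ± 3.09 (1.19), and CSRP1 to 329 ± 6.51 CPM, against 149.7 ± 5.57 (1.14).

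Most of the immediate early SRF targets were lower in Dox. Of 9 tested, 8, 6 and 6 were called lower and 0 higher at 24, 48 and 72 h (median -2.94, -2.56 and -2.21), beside 17.7%, 14.4% and 12.3% of all genes lower. EGR2 and EGR3, with 36 and 215 counts over the No Dox libraries, passed the filter only through that group. FOS, an AP-1 subunit, was at 95.6 ± 2.15 CPM without Dox, 1.32 ± 0.264 at 24 h, 3.94 ± 0.962 at 48 h and 7.34 ± 0.257 at 72 h (log2 fold change -6.17, -4.56 and -3.71). EGR1, a zinc finger factor, was at 242 ± 9.79, 15.9 ± 1.98, 18.9 ± 2.04 and 50.9 ± 5.6 CPM in the same order (-3.92, -3.68 and -2.25). JUNB, another AP-1 subunit, was at 154 ± 9.12, 20.1 ± 1.3, 26 ± 1.12 and 33.3 ± 2.79 CPM (-2.94, -2.56 and -2.21). These genes are also targets of ERK signaling, and the part of SRF in these levels was not tested.

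**Figure D4:**
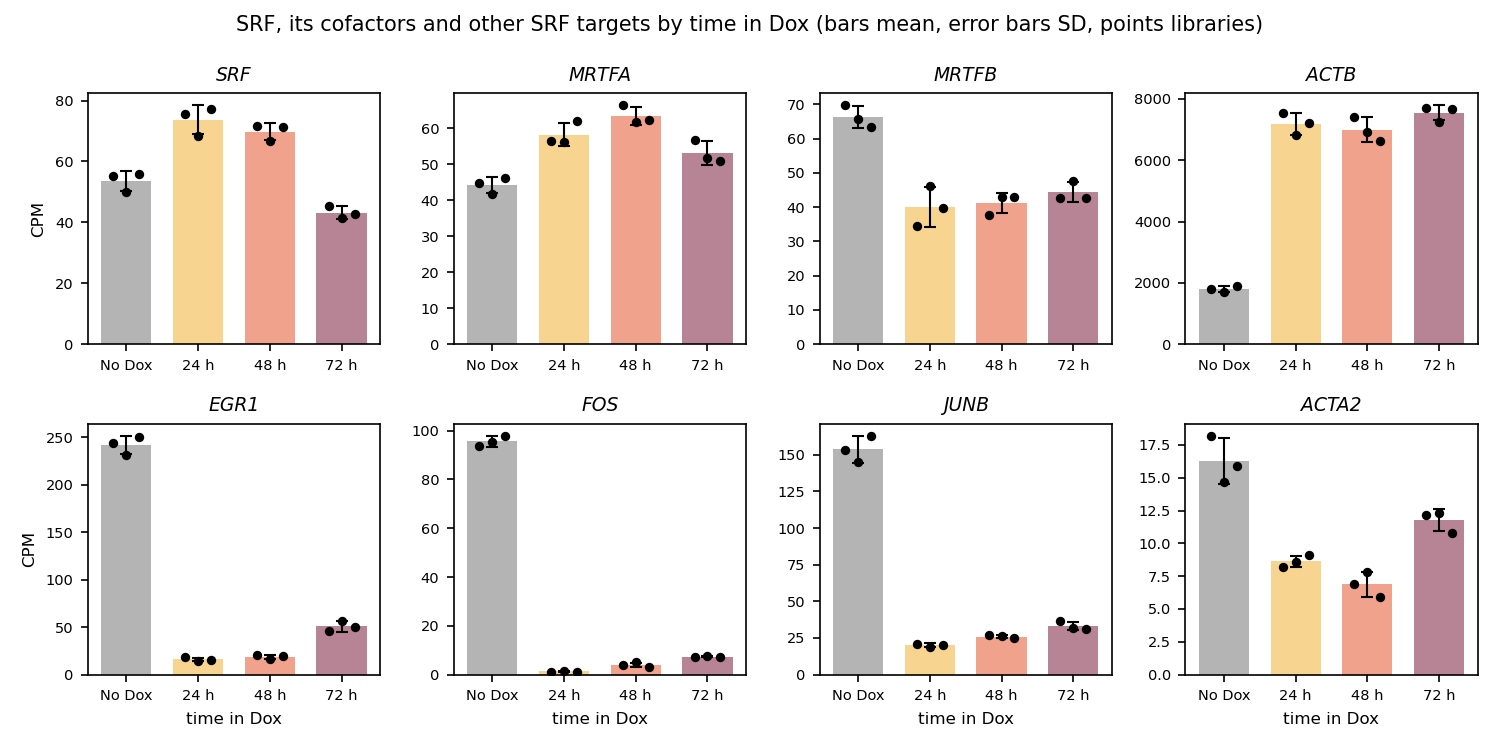
CPM of SRF, MRTFA, MRTFB, ACTB, EGR1, FOS, JUNB and ACTA2 by time in Dox, with bars for the mean, error bars for the SD and points for 3 libraries per group, on axes that start at 0. ACTB averaged 6994 to 7542 CPM in the Dox groups, while EGR1, FOS and JUNB were lower than without Dox at every time.

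Of 19 sarcomere genes other than TNNT2, only 5 passed the filter on low counts. At 24, 48 and 72 h 0, 1 and 1 were called higher and 3, 3 and 2 lower (median -1.04, -1.11 and -0.98), beside 12%, 10.6% and 10.2% of all genes higher and 17.7%, 14.4% and 12.3% lower. The gene called higher was TNNC1, named after its values were seen, at 0.537 ± 0.0355 CPM at 72 h, against 0.0164 ± 0.0284 CPM without Dox. It passed the filter only through the 72 h libraries, where it is highest, so its 48 h call also rests on them. That 48 h call was lost on log2(TPM + 1) and with only the groups compared. Its 48 h libraries held 8, 11 and 3 counts, and its 72 h libraries 11, 8 and 15. With a filter of at least 10 counts in every library of a group it was not tested, so its 48 h and 72 h calls were lost there. NEBL, a nebulin-like actin-binding protein, fell to 12.9 ± 0.615 CPM at 72 h, against 114 ± 0.504 without Dox (log2 fold change -3.14), and TNNI2 to 20.2 ± 0.829 CPM, against 91 ± 4.99 (-2.16).

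Effective length, the mean length over which RSEM placed a gene's fragments, follows which transcripts a gene uses and was not part of the choice of members. With 3 libraries against 3 the smallest p an exact two-sided permutation test can give is 0.1, and the smallest adjusted over members and times was 0.245, so no difference could pass. TAGLN was at 769 ± 6.4, 784.9 ± 4.51 and 800 ± 20.4 nt at 24, 48 and 72 h, against 868.8 ± 10.7 nt without Dox, with no overlap at any time. TPM2 was at 966 ± 9.28, 972.1 ± 1.98 and 939.1 ± 17.9 nt, against 1047 ± 23.4 nt, also without overlap. TPM1 was longer at 24 h and 48 h, at 1341 ± 25.7 and 1314 ± 17.2 nt, against 1219 ± 18 nt without Dox, and overlapped with it at 72 h, at 1237 ± 36.7 nt. FLNA at 24 h was at 3928 ± 245 nt, against 4410.3 ± 183 nt without Dox, and ACTN1 at 48 h was at 3428 ± 24.6 nt, against 3343 ± 60.3 nt. TNNT2 at 24 h was at 793.9 ± 93.8 nt, against 1135 ± 270.5 nt, on few reads in both groups. These did not overlap either, while the remaining comparisons did. The share of all genes without overlap in effective length was not computed. Whether such differences are more common in the members than in other genes was thus not tested. A fold change in TPM therefore differs from one in counts for these genes, and for TAGLN at 24 h the TPM averaged 120.4 ± 4.88, against 12.6 ± 1.12.

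Some members overlap other genes. On the opposite strand, exons of TAGLN share 2233 nt with PCSK7, exons of VCL share 1109 nt with AP3M1 and exons of TPM1 share 2645 nt with TPM1-AS. The library kit keeps strand, but the strand setting used in counting is not given in the sources used here, so reads of such pairs may not have been separated. PCSK7 was at 71.3, 80.9, 70.7 and 71.9 CPM in time order from No Dox, with its highest mean at 24 h as for TAGLN, and its part in the TAGLN level was not tested. AP3M1 was at 64.6, 76.5, 72.7 and 76.8 CPM in the same order. On its own strand, TAGLN shares 2498 exonic nt with ENSG00000280143, a TEC transcript (to be experimentally checked) at 4.55, 5.86, 4.63 and 4.05 CPM likewise, so its reads may be divided between both. The deposited posterior SD of the count was at most 0.00985% of the count in any member, which tells how firmly RSEM divided the reads and not how many were shared.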

How the data were processed

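Poly(A)-selected RNA of 12 libraries (4 groups of 3) was sequenced as strand-specific read pairs. The authors used STAR (GRCh38, GENCODE version 22) for alignment and RSEM for gene estimates, and the deposited tables hold expected counts, which share a read that fits several genes. Deposited TPM was computed by the authors with RSEM from effective lengths. Tool versions and strand setting: not given in the sources used here. Deposited FPKM was not used.

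Names came from GENCODE version 44 for 56321 of 60483 rows. Expected counts were rounded, filtered with filterByExpr (14822 genes), scaled by TMM and fitted with edgeR 4.0.16 (quasi-likelihood, 1 mean for each group, all libraries together). R 4.3.3, DESeq2 1.42.0 and limma 3.58.1 were also used. The common biological coefficient of variation was 5.71%. CPM is counts over scaled library size. Each SE of a log2 fold change was taken as its size over the square root of the test's F statistic. It was back-calculated and is not an SE given by the fit. Each Dox time was compared with No Dox and with the other times. The test was tried on simulated data with known changes.

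The members and the lists (contractile, focal adhesion, immediate early, sarcomere and cell markers) were chosen with earlier results of these data known. Genes named beside members were SRF, MRTFA, MRTFB, MYOCD, WWTR1, up to 4 called genes per list with the largest change at 72 h and at least 5 CPM, and the 3 genes most like TNNT2. Other listed genes enter only counts and medians, except 1 gene and 1 list that are not reported here. Others are said to be named after their values were seen. Alternatives were other scalings, DESeq2, effective lengths, glmTreat, no fold threshold, other filters, only the groups compared, limma on log2 TPM with 0.5 or 1 added, a replicate block and omission of each library in turn. Over 18 same-number pairs, deviations from group means correlated at -0.218 to 0.364, with 3 over 0.1. The mean was 0.024, against -0.013 for pairs of other numbers. Pairing by number was thus not seen, which cannot exclude it. Promoter windows are from RefSeq (GRCh38.p14). No protein sequence was used here.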

Additional observations from a re-analysis of the deposited data

Results flagged for a closer look

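For 18 of 24 genes checked, the change against No Dox differed between 72 h and 24 h at an adjusted p under 0.05 (edgeR quasi-likelihood test of 72 h against 24 h), beside 30.5% of all genes higher and 30.2% lower. Both changes use the same No Dox libraries, so this is the test of the difference itself. TNNT2 was not tested. The 24 genes were the tested members, SRF, MRTFA, MRTFB and the genes named from the lists. Those from the lists were picked by their change at 72 h against No Dox, so the count only describes this set. Among the members, the log2 difference between 72 h and 24 h was -0.92 for MYL9 (adjusted p = 1.21e-05), -0.51 for TAGLN (1.5e-06), -0.41 for CNN2 (6.08e-08), -0.32 for FLNA (2.26e-06) and -0.19 for ACTN1 (0.000473), so each of these was lower at 72 h. It was 0.17 for TPM2 (0.00773) and 0.14 for VCL (0.0343), which were higher at 72 h.

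SRF differed by -0.77 (adjusted p = 2.02e-09), with a change against No Dox of -0.32 at 72 h and 0.45 at 24 h. Actin-binding and adhesion genes moved both ways between these times. CSRP2 (0.92), LIMA1 (0.72) and PARVA (0.43) were higher at 72 h, and SMTN (-0.62) and CSRP1 (-0.32) were lower. TNS1 (0.81) was higher at 72 h than at 24 h but below its No Dox level at both times. The early genes FOS (2.47), EGR1 (1.67) and JUNB (0.72) and the sarcomere gene NEBL (0.93) were higher at 72 h than at 24 h but still below their No Dox levels.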

How the results depend on the processing

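For log2 fold changes of the 8 tested members over 6 comparisons, leaving out a library left 575 on the same side of the calling threshold and moved 1 past it. Other settings left 598 on the same side, moved 24 past it (all with no fold threshold) and moved 2 (both FLNA at 24 h) under it, and none of the called values changed sign. Without 24 h replicate 3, MYL9 was called lower at 72 h against 24 h (log2 fold change -1.02), so the members called there ranged from 0 to 1. No other count of members called moved on leaving out a library. With no fold threshold, members called were 7 at 48 h and 8 at 72 h against No Dox, 5 at 48 h against 24 h, 3 at 72 h against 48 h and 7 at 72 h against 24 h. Genes called were then 11142, 10646 and 10252 at 24, 48 and 72 h against No Dox, with 5414 at 48 h against 24 h, 5742 at 72 h against 48 h and 8992 at 72 h against 24 h. In place of 3718, 3333, 669, 480 and 1819 genes, glmTreat called 2464 at 48 h and 2155 at 72 h against No Dox and 177, 26 and 655 in the comparisons between Dox times in that order, since it tests the fold threshold itself. Limma on log2(TPM + 0.5) called 355, 199 and 1100 genes between Dox times, and log2(TPM + 1) called 248, 117 and 809 there. On the second scale 2865, 2417 and 2110 genes were called at 24, 48 and 72 h against No Dox, with 1281 higher and 1136 lower at 48 h (1578 and 2140 on counts) and 1205 and 905 at 72 h (1505 and 1828 on counts). An added pseudocount shrinks the change of low genes. The scales differ in other ways too. The median log2 fold change on log2(TPM + 1) was 0.08 at 48 h and 0.1 at 72 h over 13986 genes. On counts it was -0.01 and -0.02 over 14822 genes. The part of each in the numbers called was not tested. The log2 fold change of TNNT2 at 72 h against No Dox ran up to 6.86 with effective lengths and down to 5.32 on log2(TPM + 1). With a replicate block, 5, 4 and 4 members and 4380, 3712 and 3321 genes were called against No Dox, and 5 of 12 libraries correlated best with their own number.

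Early TNNT2 and all CNN1 levels rest on few reads, and MYL9 without Dox was at 1.14 to 2.3 CPM. The effective-length test could not pass with 3 libraries a group.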
